A study of Mus musculus with 34 samples.

Results

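The effect of the R6/2 transgene on the cortical transcriptome was measured by pooling both Hdac4 backgrounds of a 2 x 2 cross. Huntington's disease (HD) is caused by an expanded CAG repeat in the huntingtin gene, and R6/2 mice carry exon 1 of the human gene with such an expansion, under the human promoter, as a transgene. All 34 arrays of the series were used, each hybridised with cortex RNA of a mouse aged 15 weeks from a CBA X C57Bl/6 colony. The members were chosen by genotype label. The 18 carriers of the transgene were 9 R6/2 mice with both Hdac4 alleles intact and 9 Dble::R6/2 mice, which had 1 Hdac4 knock-out allele as well. The 16 non-carriers were 8 WT mice and 8 Hdac4HET mice, which had 1 Hdac4 knock-out allele and no transgene. The comparison therefore asks what the transgene did whichever Hdac4 background it was on, and its larger number of animals was used to describe changes too small to be called in R6/2 against WT or in Dble::R6/2 against Hdac4HET alone.

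The exon 1 protein misfolds, forms nuclear and cytoplasmic inclusions, and interferes with transcription. Cortical and striatal neurons of R6/2 mice lose transcripts of neurotransmitter receptors, ion channels and signalling enzymes, many of which need neuronal activity or chromatin acetylation for their expression. Cells meet misfolded protein with chaperones, which refold it, with the proteasome, a barrel-shaped protease that digests ubiquitin-tagged proteins, and with autophagy, which delivers larger cargo to lysosomes. Each of these machines has many subunits that are needed in fixed proportions, so that small changes shared by many subunits can be followed as a group.

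Levels are log2 values of probe sets, sets of short probes for a transcript, and a log2 change is the mean of carriers minus that of non-carriers with the Hdac4 genotype as a covariate in limma. A gene was called at an adjusted p of 0.05 or less over all 45037 probe sets, and each of 18193 genes was represented by its brightest probe set. A called change was termed small when it was at most 1.3-fold, which is a log2 change of at most 0.38 in either direction, a rise of up to 30% or a fall of up to 23.1%. The array carries mouse probes, so the human transgene itself was not measured, and the labels could not be checked by it.

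The median log2 value of an array was 5.44 to 5.52, and any 2 arrays of the same genotype correlated at 0.973 or more. The cortical markers Slc17a7, Tbr1, Cux2 and Neurod6 were all above the median gene in level. Transcripts of neighbouring or foreign tissue stood out in several arrays, of which 9 were set apart. In WT replicates 2, 6 and 7 and Hdac4HET replicate 1 the pituitary hormone transcript Prl read 9.22 to 12.1, against 3.21 to 6.04 in the other non-carriers and 3.06 to 3.78 in carriers. In R6/2 replicate 2 the skin keratin Krt10 read 9.21, while no non-carrier exceeded 7.64. Over the markers of a tissue, each relative to its non-carrier mean, choroid plexus and ependymal genes averaged 1.22, 1.86 and 1.34 in Dble::R6/2 replicates 4, 8 and 9, against at most 0.43 in non-carriers, and muscle genes averaged 1.07 in Hdac4HET replicate 7, against at most 0.15 in any other array. The level of Xist, expressed from the inactive X chromosome of females, disagreed with the labelled sex in 15 of the 34 arrays, 5 of carriers and 10 of non-carriers. The results below are given with all arrays, and again where a call was lost or a count above 1 moved by more than 1.5 times, either without the 5 arrays high in Prl or epidermal transcripts (the 5 arrays) or without all 9. Leaving out all 9 was chosen after the data had been seen. The 9 are not every array with such transcripts. On the same scale R6/2 replicate 3 averaged 0.71 in choroid plexus and ependymal genes. Striatal genes averaged 0.44 in Hdac4HET replicate 3, 0.36 in WT replicate 3 and 0.06 in R6/2 replicate 3, against at most -0.22 in other carriers. These arrays stayed in when the 9 were left out. When sex was taken from the Xist level and added as a covariate, 99.1% of the genes called were called with the same sign.

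The transgene moved a large share of the cortical transcriptome by small amounts. Of 18193 genes, 43.0% were called (7826), 26.8% as higher in carriers (4867) and 16.3% as lower (2959), while the median gene changed by 0.02 on the log2 scale. Small changes made up 5358 of the calls, or 68.5%, with 3535 rises and 1823 falls, and 5342 of them had the same sign in R6/2 against WT and in Dble::R6/2 against Hdac4HET. The pooled change is in effect the average of those 2 changes. A shared sign among its calls is therefore largely set by the selection and is no separate evidence. In both directions together small changes were called for 29.5% of all genes. Among the 9096 genes brighter than the median gene, 60.8% were called, 38.5% as higher and 22.3% as lower, and these shares are the background for gene groups whose members are mostly bright. Falls were fewer than rises but larger, since 125 genes fell and 65 rose by more than 2-fold. At the limit of a small change the neighbouring genes were near equal, with Trmt6 (0.3783) and S100a8 (0.3784) just inside and Tor1b (0.3786) and Adgre1 (-0.3788) just outside. Without the 5 arrays 24.6% of genes were called higher and 16.4% lower, and 89.1% of the genes called with all arrays were called again with the same sign. Without all 9 arrays these shares were 22.7%, 15.2% and 84.0%.

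**Figure D1:**
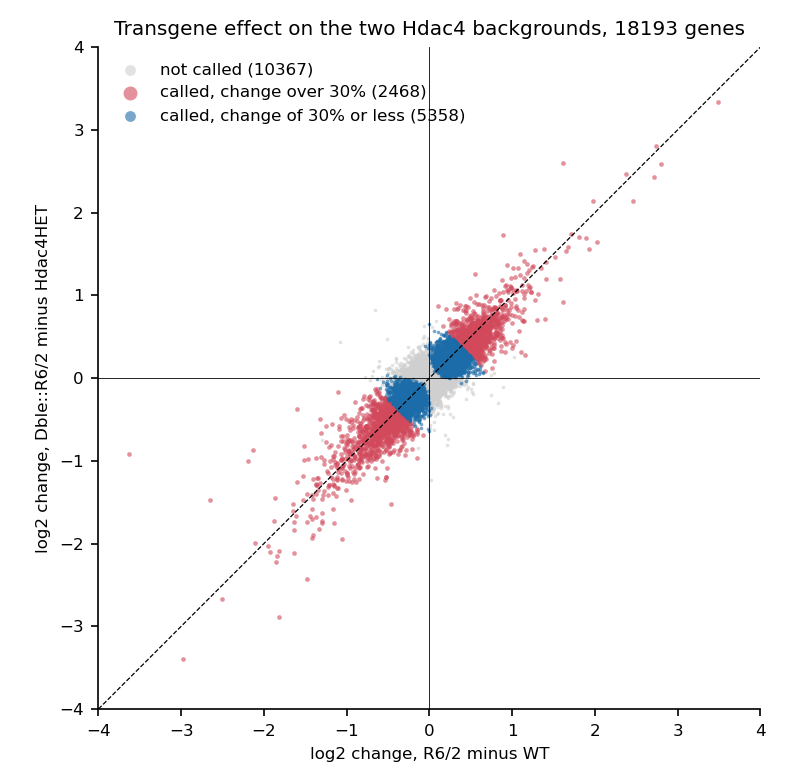
Log2 change of each of 18193 genes in R6/2 minus WT (x axis) against Dble::R6/2 minus Hdac4HET (y axis), with the dashed line where both are equal. Called genes with a change of 30% or less (5358, blue) and larger called changes (2468, red) lie along the line in the lower left and upper right, with genes not called in grey.

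The pooled comparison gained precision over either pair of genotypes. The median standard error of a gene's log2 change was 0.0571 with all arrays, against 0.0795 for R6/2 and WT alone and 0.0786 for Dble::R6/2 and Hdac4HET alone. R6/2 against WT alone gave 5827 called genes and Dble::R6/2 against Hdac4HET alone gave 5460. Of the pooled calls, 3979 were called in both pairs, 2814 in 1 pair and 1033 in neither. Conversely, 512 genes called in at least 1 pair alone were not called in the pooled comparison. Of those 1033 genes 621 rose and 412 fell, 1020 were small changes, and their median absolute log2 change was 0.16. The gain was largest for the smallest changes. Of 1957 genes called with a change of 15% or less, 41.1% were called in neither pair, whereas of 2278 genes with a change between 30% and 2-fold 89.9% were called in both. The smallest change called was 4.61%. The pairs share no arrays with each other, but the pooled fit uses the arrays of both, so that a call in both pairs is not independent of the pooled call.

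**Figure D2:**
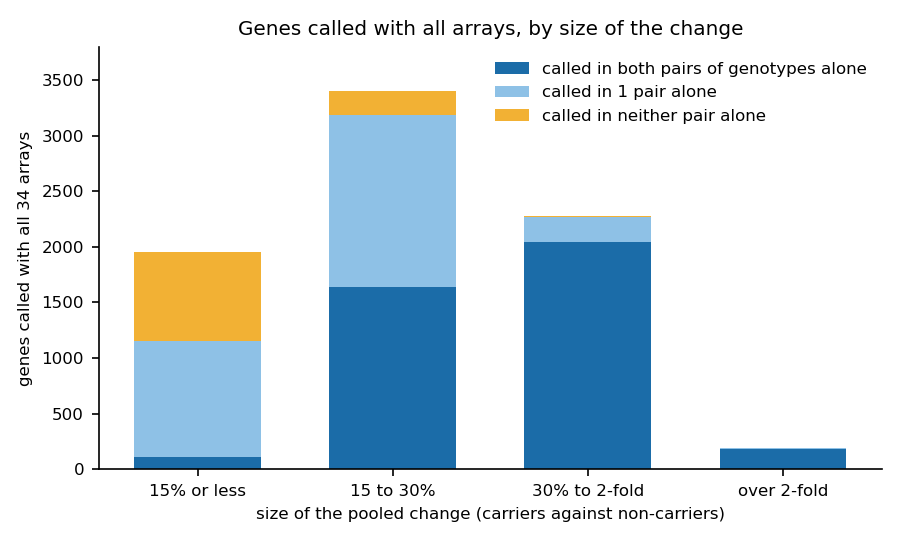
Number of genes called with all 34 arrays (y axis) by the size of the pooled change (x axis), split by whether each gene was also called in both, in 1 or in neither of the 2 pairs of genotypes tested alone. The share called in neither pair was 41.1% for changes of 15% or less and 0.6% for changes between 30% and 2-fold.

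The small rises with the lowest adjusted p were of Wdr45b, Cct2, Vdac3, Rbmxl1, Atp6ap1 and Tbc1d20. Wdr45b encodes a phosphoinositide-binding protein of autophagosome formation. Its level was 9.8 to 9.99 in non-carriers (median 9.94) and 10.14 to 10.54 in carriers (median 10.24). No carrier overlapped a non-carrier, and the log2 change was 0.37 ± 0.032, SE, adjusted p = 1.11e-11, a rise of 29.4%. Cct2, a subunit of the cytosolic chaperonin that folds actin and tubulin, was 10.47 to 10.78 in non-carriers (median 10.65) and 10.8 to 11.12 in carriers (median 10.998). The groups were again separate, with a log2 change of 0.37 ± 0.033, SE, adjusted p = 2.16e-11. Vdac3, a channel of the mitochondrial outer membrane, read 10.72 to 10.94 in non-carriers (median 10.87) and 11.01 to 11.25 in carriers (median 11.15). All 18 carriers lay above all non-carriers (0.30 ± 0.028, SE, adjusted p = 9.02e-11). Atp6ap1, an accessory subunit of the proton pump that acidifies lysosomes, was 11.46 to 11.64 in non-carriers (median 11.54) and 11.72 to 11.96 in carriers (median 11.83). It too separated the groups, although it rose by only 21.7% (0.28 ± 0.027, SE, adjusted p = 1.20e-10). Tbc1d20, a GTPase-activating protein for Rab1 in the early secretory pathway, rose by 0.37 with all 18 carriers above all non-carriers, on 1 of its 3 probe sets. Rbmxl1, an RNA-binding protein gene derived from Rbmx, rose by 0.38, and 17 of 18 carriers lay above every non-carrier. Its probes may also read other copies of that family.

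The falls with the lowest adjusted p among small falls were of Tmod1, Tuba4a, Kif5c, Nrxn3, Mtcl1 and Pi4ka. Tmod1 encodes tropomodulin, which caps the slow-growing end of actin filaments. It was 8.97 to 9.36 in non-carriers (median 9.12) and 8.57 to 8.93 in carriers (median 8.79). No carrier reached the lowest non-carrier, and the log2 change was -0.37 ± 0.034, SE, adjusted p = 2.69e-11. Tuba4a, an alpha-tubulin, was 12.76 to 12.999 in non-carriers (median 12.92) and 12.45 to 12.74 in carriers (median 12.54). The groups were separate (-0.35 ± 0.032, SE, adjusted p = 4.11e-11), and all 3 of its probe sets were called lower. Kif5c, the neuronal heavy chain of the motor kinesin-1, was 12.35 to 12.61 in non-carriers (median 12.51) and 12.11 to 12.3 in carriers (median 12.22). This fall of -0.29 on the log2 scale separated the groups and was called on all 4 probe sets. Nrxn3, a presynaptic adhesion molecule of the neurexin family, fell by 0.38 with 17 of 18 carriers below every non-carrier and all 5 probe sets called. Pi4ka, a lipid kinase that makes phosphatidylinositol 4-phosphate, fell by 0.31 with all 18 carriers below all non-carriers. Mtcl1, a microtubule crosslinking factor, fell by 0.36 on its brighter probe set and rose on its other one, so that its direction depended on the probe set.

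**Figure D3:**
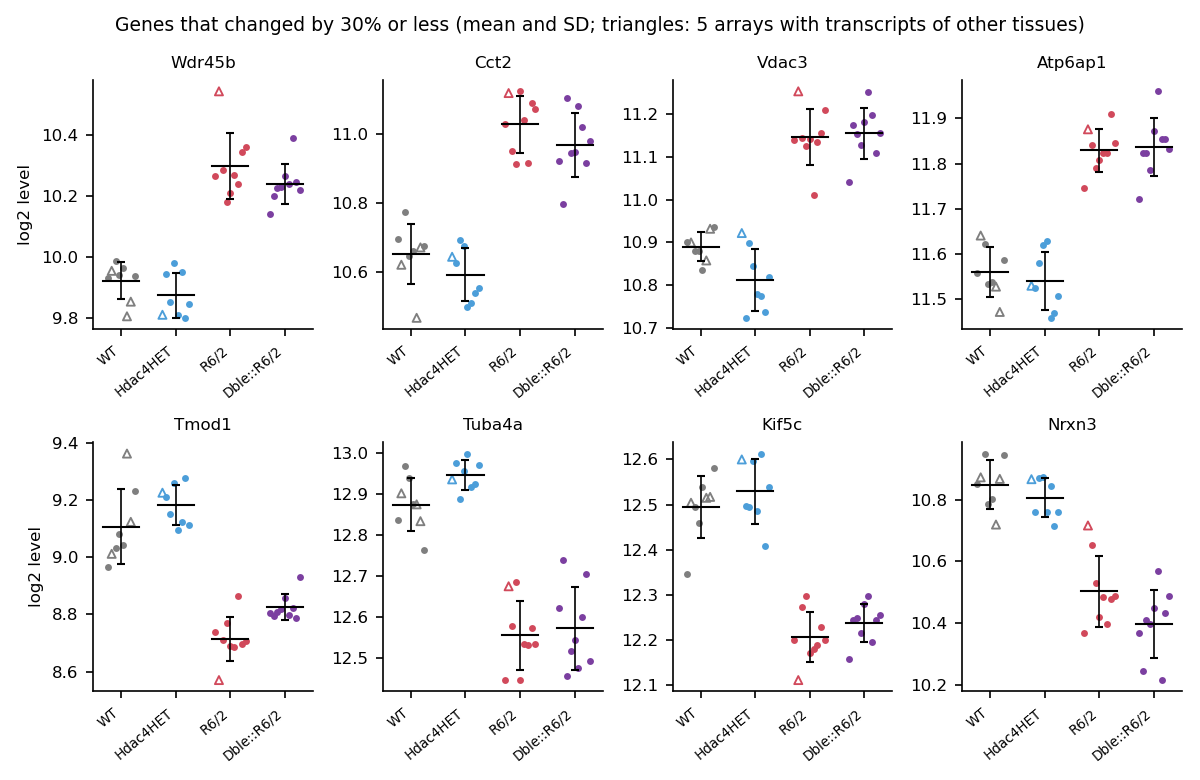
Log2 level (y axis) of 4 genes that rose and 4 that fell by 30% or less, for every array, by genotype, bars giving the mean ± SD (triangles mark the 5 arrays high in Prl or epidermal transcripts). In Wdr45b, Cct2, Vdac3 and Atp6ap1 all 18 carriers lay above all 16 non-carriers, and in Tmod1, Tuba4a and Kif5c all lay below; in Nrxn3 1 carrier reached the range of the non-carriers.

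Complete separation of 18 carriers from 16 non-carriers was found for 360 genes that were higher (1.98% of all genes) and 353 that were lower (1.94%). Of these, 57 rises and 14 falls were small changes. The largest rises were of transcription factor genes that pattern the embryo and are near background in adult cortex, namely Pou4f1 (3.41), Onecut2 (2.69), Twist1 (2.57) and Shox2 (2.42), together with the predicted gene Gm2102 (2.77). Pou4f1 read 3.48 to 4.44 in non-carriers and 6.93 to 8.39 in carriers. The largest falls were of the immunoglobulin heavy chain Ighm (-3.19), the matrix protein Abi3bp (-2.59), the activity-regulated factor Egr2 (-2.35) and the pituitary hormones Prl (-2.27) and Gh (-2.06). The falls of Prl and Gh were -0.69 and -1.1 without the 5 arrays, and both groups overlapped in both genes.

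The effect was tested for a difference between the Hdac4 backgrounds. Across genes the changes in R6/2 against WT and in Dble::R6/2 against Hdac4HET correlated at r = 0.855, given as a description over 18193 genes that are not independent. No gene's representative probe set differed between backgrounds after adjustment, while 8.36% had an unadjusted p under 0.05. Of all 45037 probe sets 1 was called (0.00222%), a probe set of the protamine gene Prm1, which changed by 0.055 with both Hdac4 alleles and by 1.08 with 1 of them knocked out (difference 1.03, adjusted p = 0.000908). Without WT replicate 8 the number called was 10. Single subunits could still point in opposite directions on the 2 backgrounds. The proteasome subunit Psma1 changed by -0.17 in R6/2 and by 0.22 in Dble::R6/2, and was not called in the pooled comparison (0.03, adjusted p = 0.804).

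In total 79 groups of genes were then described by their median log2 change and by how many members were called. The median of 41 groups was above 0 and of 38 below, and in 75 it was within 30%. It had the same sign on both backgrounds in 69 groups, and kept its sign without the 5 arrays in 70, as it did without all 9 arrays. In 48 groups small changes outnumbered larger ones among the calls. In whole cortex, a change in the number of cells of a type and a change in RNA per cell cannot be told apart.

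**Figure D4:**
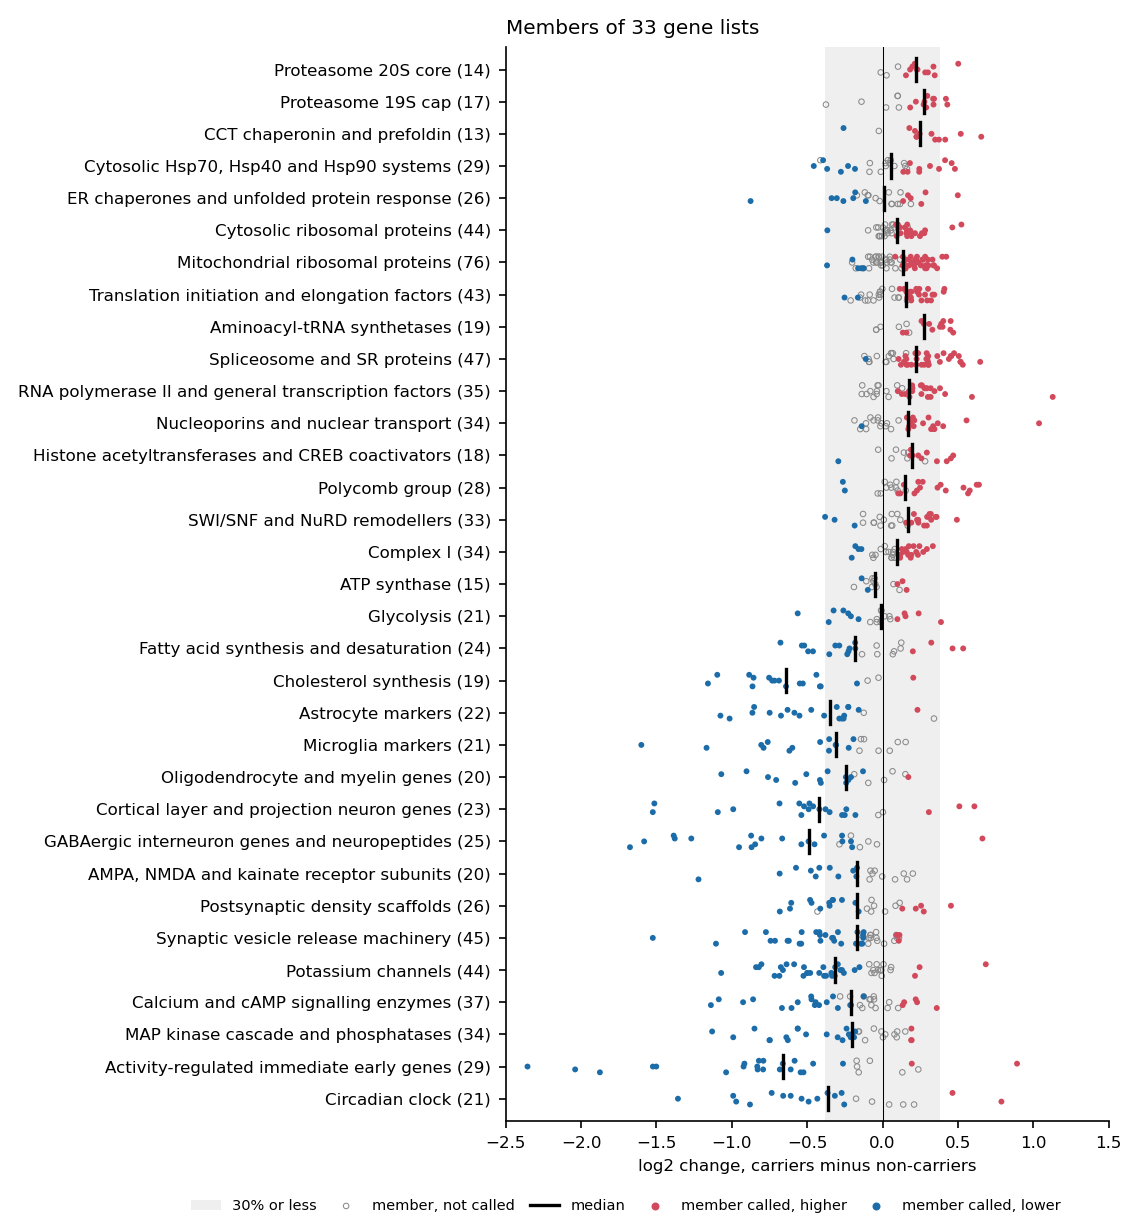
Log2 change of each member (points) of a selection of gene groups, carriers minus non-carriers, with the number of measured members in parentheses and the median as a black bar; red and blue points were called higher and lower, open points were not called, and the grey band marks changes of 30% or less. Medians of the proteasome, chaperonin, splicing and translation groups lie to the right within the band, and those of cholesterol synthesis and immediate early genes lie to the left outside it.

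Subunits of the proteasome were higher in carriers by small amounts. The 20S core is the proteolytic barrel and the 19S cap recognises ubiquitin and unfolds the substrate. Of 14 core subunits 11 rose and none fell, with a median of 0.22 and 10 small changes. Of 17 cap subunits 11 rose and none fell, with a median of 0.27 and 9 small changes. These shares of 78.6% and 64.7% stand beside 38.5% of genes brighter than the median gene. Psmb5, a catalytic subunit of the core, was 10.13 to 10.52 in non-carriers (median 10.38) and 10.53 to 10.84 in carriers (median 10.66). Every carrier lay above every non-carrier (0.30 ± 0.037, SE, adjusted p = 2.83e-08). Psma2 and Psma3, which belong to the outer rings of the core, rose by 0.28 and 0.23 with 17 of 18 carriers above all non-carriers in each. Psmb3, a subunit of the inner rings, had the largest rise in the core (0.50 ± 0.068, SE, adjusted p = 1.85e-07).

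In the 19S cap, Psmd6 was 10.06 to 10.28 in non-carriers (median 10.21) and 10.28 to 10.57 in carriers (median 10.48). It separated the groups with a rise of only 22.2% (0.29 ± 0.032, SE, adjusted p = 2.18e-09). Psmd14, the deubiquitinase that removes the ubiquitin chain, rose by 0.27 with 8 of 18 carriers above all non-carriers. The largest rises were of Psmc2 (0.43), an ATPase of the base ring, and Psmd3 (0.42). Psmd7 (-0.38) and Psmd8 (-0.14) were not called. The mean over the 14 core subunits was taken in each array, with each subunit set relative to its non-carrier mean. It ranged from -0.09 to 0.06 in non-carriers and from 0.16 to 0.31 in carriers. All 18 carriers thus lay above all 16 non-carriers. This is not particular to the core, since the means of many other groups separated the arrays in full. Examples are the Polycomb, RNA polymerase II and circadian clock groups. For the cap the mean ranged from -0.11 to 0.09 in non-carriers and from -0.10 to 0.33 in carriers. R6/2 replicate 2, the array with epidermal transcripts, was the carrier at -0.10. Psme1, a subunit of the interferon-inducible activator PA28, rose more (0.63 ± 0.055, SE, adjusted p = 1.39e-11), with no overlap, and the immunoproteasome subunit Psmb8 rose by 0.31.

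Promoter sequence was examined for groups whose members moved together and for groups that were split or moved little. In the 250 bases before the start of 14 cap genes with a promoter in RefSeq, the motif CCGGAAG, read by ETS family factors, was found on either strand in 8 (57.1%), against 7.83% of 27025 promoters of the same length. It was also found in 41.0% of 39 cytosolic ribosomal protein genes, in 34.9% of 43 spliceosome genes and in 33.3% of 12 aminoacyl-tRNA synthetase genes. In other groups with mostly rising members it was rarer, in 9.09% of 11 genes of the 20S core and 18.2% of 11 CCT and prefoldin genes. In cholesterol synthesis genes the motif CCAAT, read by nuclear factor Y, was found in all 16 with a promoter, against 37.5% of all promoters, and the E-box CACGTG in 25.0% against 6.86%. The E-box was found in 35.5% of 31 lysosomal genes, and TTGCATCA, of the stress factor ATF4, in 6 of 20 integrated stress response targets against 0.918% of all genes. The sterol regulatory element is read by Srebf2, the factor of cholesterol synthesis. A fixed pattern for it was found in 1 of 16 cholesterol synthesis genes (6.25%), against 1.22% of all promoters. A fixed pattern for the heat shock element was found in 1 of 25 genes of the Hsp70, Hsp40 and Hsp90 systems (4.0%), against 0.514%. That for the cAMP response element was found in 2 of 22 immediate early genes (9.09%), against 1.77%. Other forms of these elements were not searched, so the counts do not show that the remaining genes lack them. The motifs do not overlap each other in their letters, 7 motifs were searched in 11 groups, and a match is a description of the sequence. The promoters of 3 cholesterol genes and 2 cap genes are shown from RefSeq (GRCm38.p6). Cholesterol synthesis had the lowest median of the metabolic groups, and the cap is the proteasome part described above. Each sequence runs from 250 bases before the start to the start on the gene's strand. The motif is in capitals on either strand, so that ATTGG stands for CCAAT and CTTCCGG for the other motif.
Msmo1, chr8:64733579-64733828, minus strand: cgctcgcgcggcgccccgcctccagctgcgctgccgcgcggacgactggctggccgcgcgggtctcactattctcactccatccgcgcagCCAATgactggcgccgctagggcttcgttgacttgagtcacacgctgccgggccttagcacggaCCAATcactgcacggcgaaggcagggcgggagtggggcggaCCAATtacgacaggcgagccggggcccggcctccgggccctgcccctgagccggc
Idi1, chr13:8885356-8885605, plus strand: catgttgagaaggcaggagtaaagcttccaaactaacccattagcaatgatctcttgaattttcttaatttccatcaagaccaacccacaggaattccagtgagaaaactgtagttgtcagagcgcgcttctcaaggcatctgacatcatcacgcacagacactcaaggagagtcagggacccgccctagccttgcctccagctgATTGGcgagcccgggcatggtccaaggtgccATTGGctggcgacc
Cyp51, chr5:4104698-4104947, minus strand: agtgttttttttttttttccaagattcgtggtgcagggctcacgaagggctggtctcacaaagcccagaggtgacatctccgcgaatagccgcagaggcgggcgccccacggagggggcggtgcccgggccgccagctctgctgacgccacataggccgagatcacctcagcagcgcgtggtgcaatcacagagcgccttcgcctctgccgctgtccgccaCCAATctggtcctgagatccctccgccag
Psmd11, chr11:80428365-80428614, plus strand: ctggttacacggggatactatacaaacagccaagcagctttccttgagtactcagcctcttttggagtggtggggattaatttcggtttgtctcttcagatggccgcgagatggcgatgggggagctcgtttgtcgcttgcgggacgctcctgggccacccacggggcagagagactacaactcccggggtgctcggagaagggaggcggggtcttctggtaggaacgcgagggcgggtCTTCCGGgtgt
Psmd4, chr3:95042615-95042864, minus strand: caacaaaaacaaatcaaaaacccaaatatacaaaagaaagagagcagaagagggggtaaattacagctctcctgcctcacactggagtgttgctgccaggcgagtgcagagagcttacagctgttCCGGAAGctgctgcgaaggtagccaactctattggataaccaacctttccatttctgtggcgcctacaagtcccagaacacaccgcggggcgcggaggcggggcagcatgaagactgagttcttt
Psmd11 and Psmd4, whose single matches are shown, rose by 0.34 and 0.30, and Msmo1, with 3 matches, Idi1, with 2, and Cyp51, with 1, fell by 1.16, 1.1 and 0.88. The genes shown were picked by the size of their change among called members with the motif. A relation between the number of matches and the change was not tested.

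Chaperones did not move as a single block. Of 13 subunits of the CCT chaperonin and its partner prefoldin, 11 rose and 1 fell, with a median of 0.25. Cct3 was 10.08 to 10.59 in non-carriers (median 10.44) and 10.74 to 11.58 in carriers (median 11.05). It had the largest rise of the group and no overlap (0.65 ± 0.059, SE, adjusted p = 3.43e-11), with 5 of 7 probe sets called. Cct4 (0.52), Cct7 (0.35) and the prefoldin subunit Pfdn4 (0.42) rose with Cct2, while the prefoldin subunit Pfdn2 fell by 0.26 (-0.16 without the 5 arrays). The group's mean per array ranged from -0.09 to 0.07 in non-carriers and from 0.20 to 0.34 in carriers. The Hsp70, Hsp40 and Hsp90 systems, which refold proteins in the cytosol, were split, with 10 of 29 members higher and 6 lower, and a median of 0.05, shares near those of bright genes. Rises included the constitutive Hsp70 Hspa8 (0.24, with the opposite call on another probe set), its cochaperone Dnajb1 (0.37), the Hsp90 activator Ahsa1 (0.41) and the small heat shock protein Hspb1 (0.48). The alpha-crystallin Cryab fell by 0.46, and the stress-induced Hsp70 genes Hspa1a and Hspa1b by 0.28 and 0.37, the former not called without all 9 arrays (adjusted p = 0.0615). Hspa1a and Hspa1b are near identical copies whose probes can read each other.

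In the endoplasmic reticulum (ER) 6 of 26 chaperones and unfolded protein response genes rose and 7 fell, with a median of 0.01, and without the 5 arrays 4 fell. The main ER chaperone Hspa5 was not called (0.10, adjusted p = 0.128). Sdf2l1, an ER chaperone cofactor, stood out with a level 6.49 to 7.33 in non-carriers (median 7.01) and 5.87 to 6.42 in carriers (median 6.17). All carriers lay below all non-carriers (-0.88 ± 0.059, SE, adjusted p = 1.97e-14). Derl1, a channel component of ER-associated degradation, rose by 0.50 on its brightest probe set, while another of its probe sets was called lower. Of 21 targets of the integrated stress response, which slows translation under stress, 9 rose and 4 fell (median 0.10). They included rises of the mitochondrial folate enzymes Shmt2 (0.48) and Mthfd2 (0.44) and a fall of the cystine transporter Slc7a11 by 0.55.

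Autophagy and lysosome genes moved little. Of 35 core autophagy genes 13 rose and 5 fell (37.1% and 14.3%, median 0.08), and of 36 lysosomal genes 9 rose and 3 fell (25.0% and 8.3%, median 0.06), shares at or below those of bright genes. Without the 5 arrays 3 autophagy genes were called lower. Named members were the autophagy protease Atg4a (0.51), the initiating kinase Ulk1 (0.24) and the lipid-binding Wipi1, which fell by 0.30. Gaa, the lysosomal alpha-glucosidase, was 10.06 to 10.39 in non-carriers (median 10.29) and 10.63 to 11.25 in carriers (median 11.01). Carriers and non-carriers did not overlap (0.73 ± 0.048, SE, adjusted p = 8.71e-15). The lysosomal growth factor progranulin, Grn, rose by 0.61, and the membrane protein Lamp1 by 0.18. Of 17 subunits of the vacuolar proton pump 6 rose and 2 fell (35.3% and 11.8%), among them Atp6v0a1 (0.32) and Atp6v1g2 (-0.29). Of 28 ubiquitin-conjugating enzymes 12 rose and 3 fell (42.9% and 10.7%), all of them by small amounts. Ube2z (0.36) and Ube2r2 (0.28) were among the rises. In both groups the share of rises was near that of bright genes.

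In each of 4 groups of translation genes more members rose than fell. Of 44 cytosolic ribosomal protein genes 23 rose and 1 fell, with a median of 0.10, and 22 of the 24 calls were small changes. Rpl22, a protein of the large subunit, was 11.44 to 11.62 in non-carriers (median 11.54) and 11.72 to 12.02 in carriers (median 11.8). Carriers were higher by 21.1% without overlap (0.28 ± 0.028, SE, adjusted p = 5.42e-10). Rpl6, also of the large subunit, rose by 0.22 with no overlap, and Rps20, of the small subunit, by 0.26 with 15 of 18 carriers above all non-carriers. Rpl12 fell by 0.37. Without the 5 arrays 17 of the 44 were called higher, a median of 0.09, and without all 9 arrays 15. Ribosomal protein genes have many processed copies in the genome, which probes can read as well.

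Of 76 mitochondrial ribosomal protein genes 40 rose and 5 fell, with a median of 0.14 and 43 small changes, and without the 5 arrays 2 fell. Mrpl39 (0.40), Mrpl44 (0.42) and Mrps34 (0.33) rose, and Mrpl36 fell by 0.37. Of 43 translation factors 23 rose and 2 fell (median 0.16). Eif3c, a subunit of the initiation factor that prepares the small ribosomal subunit, was 10.87 to 11.22 in non-carriers (median 11.04) and 11.27 to 11.77 in carriers (median 11.41). No carrier overlapped the non-carriers (0.41 ± 0.038, SE, adjusted p = 6.10e-11), and 3 of 4 probe sets were called. Eif5b, which joins the ribosomal subunits, rose by 0.41. Of 19 aminoacyl-tRNA synthetases, which charge tRNAs, 13 rose and none fell (68.4%, median 0.27). Aars (0.47), Lars (0.45) and Hars (0.45), for alanine, leucine and histidine, each rose by more than 30%.

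Splicing factors had among the highest shares of rises. Of 47 spliceosome and SR proteins 33 rose and 1 fell (70.2% and 2.1%, median 0.22), 23 of the calls being small changes. Snrpb, a core protein of the small nuclear ribonucleoproteins, was 9.53 to 10.17 in non-carriers (median 9.93) and 10.18 to 10.86 in carriers (median 10.56). All 18 carriers were above the non-carriers (0.65 ± 0.063, SE, adjusted p = 1.96e-10). Hnrnpc, which binds nascent transcripts, also separated the groups (0.45 ± 0.044, SE, adjusted p = 1.94e-10), and Prpf6 (0.51) and Cdc5l (0.36), components of the assembled spliceosome, rose in 17 of 18 carriers above all non-carriers. The group's mean ranged from -0.07 to 0.06 per array in non-carriers and from 0.15 to 0.29 in carriers. Splicing regulators of neurons and muscle did not follow them, with 5 of 23 higher and 6 lower (median -0.03). The neuronal regulators Rbfox1, Rbfox3 and Khdrbs3 fell by 0.36, 0.27 and 0.37 and the glial regulator Qk by 0.40, whereas Celf6 rose by 0.47.

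Of 35 subunits of RNA polymerase II and general transcription factors 22 rose and none fell (62.9%, median 0.18). Polr2a, the largest polymerase subunit, was 8.09 to 8.7 in non-carriers (median 8.55) and 9.21 to 10.16 in carriers (median 9.66). This was the largest rise of the group and separated the arrays (1.13 ± 0.060, SE, adjusted p = 3.41e-17), although only 1 of its 2 probe sets was called. The TBP-associated factors Taf5 (0.59), Taf1 (0.41) and Taf2 (0.34) and the polymerase subunit Polr2i (0.32) rose less. Of 34 nucleoporins and transport factors 19 rose and 1 fell (median 0.17), led by Nup93 (1.04 ± 0.058, SE, adjusted p = 1.49e-16), a scaffold nucleoporin, with no overlap between groups. Nup54 (0.56) and Nup85 (0.32) also rose.

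Chromatin regulators rose more often than bright genes at large. Polycomb proteins keep developmental genes silent by marking histones. Of 28 measured, 16 rose and 2 fell (57.1% and 7.1%, median 0.15). Bmi1, of repressive complex 1, was 9.15 to 9.42 in non-carriers (median 9.29) and 9.49 to 10.05 in carriers (median 9.77). No array of the groups overlapped (0.54 ± 0.050, SE, adjusted p = 5.24e-11). Cbx2, Cbx7 and Cbx8, which read the Polycomb mark, rose by 0.62, 0.57 and 0.58, and Phf1 by 0.64, whereas Cbx6 fell by 0.26. Without the 5 arrays 12 of the 28 were called higher. Of 52 patterning transcription factor genes, many of them Polycomb targets, 11 rose and none fell, and apart from the 4 factors above the next largest rise was of Hoxb5 (1.3). The other 41 were not called, with changes between -0.08 and 0.18, and only 2 of the 52 were brighter than the median gene.

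Of 18 histone acetyltransferases and CREB coactivators 10 rose and 1 fell (median 0.19). Ep300, the acetyltransferase p300, was 8.8 to 9.34 in non-carriers (median 9.11) and 9.22 to 9.86 in carriers (median 9.54). Its rise (0.45 ± 0.054, SE, adjusted p = 1.44e-08) put 15 of 18 carriers above all non-carriers. The CREB coactivators moved apart, with Crtc3 higher (0.47) and Crtc1 lower by 0.29, although another probe set of Crtc1 was called in the opposite direction. The related acetyltransferase Crebbp was not called (0.28, adjusted p = 0.242). Of 33 SWI/SNF and NuRD remodelling subunits 17 rose and 3 fell (median 0.17). The general subunits Phf10 (0.49) and Smarcb1 (0.32) were higher, and Actl6b, the neuron-specific actin-like subunit, fell by 0.38. Of 42 DNA and histone methylation enzymes 23 rose and 7 fell (median 0.16), with rises of Kmt2d (0.52) and Setd1b (0.53), which methylate histone H3 at lysine 4, and a fall by 0.61 of Prmt8, an arginine methyltransferase of the brain. Of 41 DNA repair genes 20 rose and 3 fell (median 0.10), among them Ercc3 (0.75 ± 0.053, SE, adjusted p = 6.57e-14), a helicase of the general transcription factor TFIIH, and Msh3 (0.31), a mismatch repair protein. The repair polymerase Polb fell by 0.31.

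Energy metabolism showed small and mixed changes. Of 34 complex I subunits 17 rose and 4 fell (median 0.10), all 21 calls were small changes, and without all 9 arrays 2 fell. Ndufb11 was 11.39 to 11.71 in non-carriers (median 11.55) and 11.73 to 12.08 in carriers (median 11.77). It separated the groups (0.27 ± 0.035, SE, adjusted p = 6.97e-08), with 2 of 3 probe sets called. Ndufb8 rose by 0.21 with 14 of 18 carriers above all non-carriers. Of 24 subunits of complexes II, III and IV 7 rose and 3 fell (29.2% and 12.5%, median 0.05), 1 of the falls being called without all 9 arrays, with Sdha, of complex II, the largest rise (0.30 ± 0.034, SE, adjusted p = 4.09e-09). Cox6a1, of complex IV, rose by only 8.72% (0.12 ± 0.025, SE, adjusted p = 1.50e-04) and yet 13 of 18 carriers exceeded every non-carrier. In Dble::R6/2 against Hdac4HET alone it was not called (adjusted p = 0.0586). Of 15 ATP synthase subunits 3 rose and 2 fell (median -0.05), and 1 fell without all 9 arrays.

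Glycolysis was split, with 5 of 21 genes higher and 7 lower (median -0.01), and 3 higher without the 5 arrays. The glucose transporter of the blood-brain barrier Slc2a1 rose by 0.39, and the muscle-type phosphofructokinase Pfkm and the astrocytic aldolase Aldoc fell by 0.36 and 0.23. Aldoc read 12.9 to 13.1 in non-carriers and 12.6 to 12.9 in carriers, without overlap. In the step that links glycolysis to the citric acid cycle, Pdp1, a phosphatase that activates pyruvate dehydrogenase, was 10.44 to 10.94 in non-carriers (median 10.66) and 8.87 to 9.63 in carriers (median 9.39). It fell by 1.3, the largest change of its group of 27, in which 4 rose and 6 fell. Genes that maintain mitochondria rose more often than they fell, with 12 of 22 higher and 2 lower (median 0.17), and 1 lower without the 5 arrays. The nuclear respiratory factor Nrf1 (0.65 ± 0.071, SE, adjusted p = 2.29e-09) and Tfam (0.41), which packs mitochondrial DNA, were higher. The coactivator Ppargc1a, known as PGC-1alpha, was 8.84 to 10.07 in non-carriers (median 9.9) and 8.74 to 9.93 in carriers (median 9.45). It fell by 0.36 with wide overlap (adjusted p = 0.0128), and was not called without the 5 arrays (adjusted p = 0.0785). Of 29 antioxidant genes 14 rose and 6 fell (median 0.12). Sod1 rose by 0.25, Gpx1 by 0.45 and Nqo1 by 0.66, each with all 18 carriers above all non-carriers.

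Cholesterol synthesis had the lowest median of the metabolic groups. Of 19 enzymes and regulators 16 fell and 1 rose (84.2% against 22.3% of bright genes), with a median of -0.64, and only 2 calls were small. The brain makes its own cholesterol, in the adult mostly in astrocytes and oligodendrocytes. Msmo1, a sterol demethylase whose promoter is shown above, was 8.79 to 9.64 in non-carriers (median 9.29) and 7.56 to 8.78 in carriers (median 8.15). All carriers lay below all non-carriers (-1.16 ± 0.095, SE, adjusted p = 3.02e-12). Idi1, which makes an isoprenoid precursor, was 8.37 to 8.96 in non-carriers (median 8.74) and 7.11 to 8.18 in carriers (median 7.53). It separated the groups as well (-1.1 ± 0.079, SE, adjusted p = 1.01e-13). Cyp51 fell by 0.88 and Srebf2, the transcription factor that drives the pathway, by 0.69, each without overlap. Hmgcs1, an early enzyme, fell by 0.64 with 15 of 18 carriers below all non-carriers, and Lss rose by 0.20, though not called without all 9 arrays (adjusted p = 0.057). The mean of the group per array ranged from -0.13 to 0.09 in non-carriers and from -0.69 to -0.34 in carriers.

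Fatty acid synthesis and desaturation followed in part, with 13 of 24 genes lower and 4 higher (median -0.18). The desaturases Fads1, Fads2 and Scd1 fell by 0.52, 0.68 and 0.46 and the acetate-activating enzyme Acss2 by 0.54. Srebf1, the factor that drives fatty acid synthesis, was 7.82 to 8.32 in non-carriers (median 8.14) and 8.46 to 8.96 in carriers (median 8.62). It rose in every carrier above every non-carrier (0.53 ± 0.052, SE, adjusted p = 1.95e-10). Of 22 sphingolipid and galactolipid genes 6 rose and 7 fell, and the largest falls were of Ugt8a (-1.07) and Fa2h (-0.58), enzymes of myelin lipids, and of St8sia5 (-0.81), a ganglioside sialyltransferase. Of 32 fatty acid oxidation and peroxisome genes 12 rose and 5 fell (median 0.05).

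**Figure D5:**
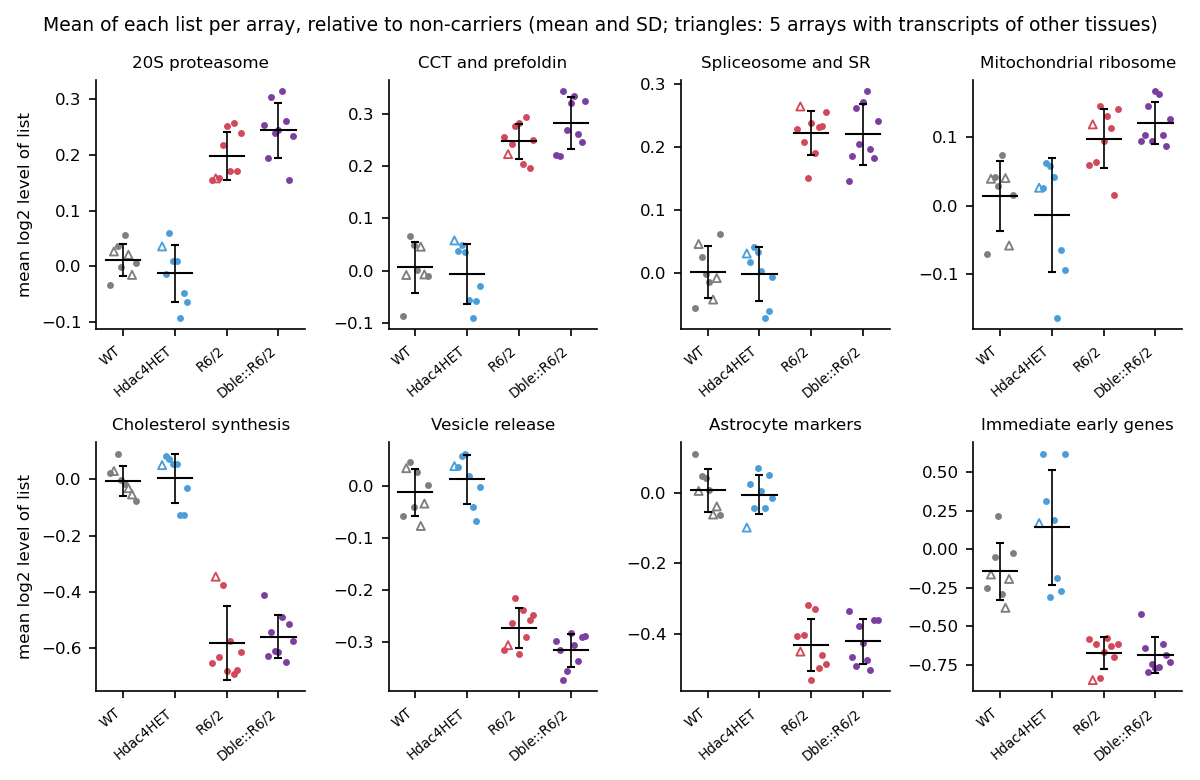
Mean log2 level of the members of 8 gene groups in each array, relative to the mean of all non-carriers (y axis), by genotype, bars giving the mean ± SD; triangles mark the 5 arrays high in Prl or epidermal transcripts. Carriers lie above all non-carriers in the 20S proteasome, the CCT chaperonin with prefoldin and the spliceosome, overlap with them in the mitochondrial ribosome, and lie below all of them in the other 4 groups. The 8 groups are a selection, and the means of many other groups separated the arrays as well.

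Markers of several cell types were lower in carriers, and these values stand beside the lipid and synaptic results. Of 22 astrocyte markers 19 fell and 1 rose (median -0.35), and their mean per array ranged from -0.10 to 0.11 in non-carriers and from -0.53 to -0.32 in carriers. The serine transporter Slc7a10 fell by 1.08 and the water channel Aqp4 by 0.67, the gap junction protein Gja1 by 0.25 and the glutamate transporter Slc1a3 by 0.23, while Gfap was at 0.34 and not called (adjusted p = 0.0503). Of 21 microglial markers 14 fell and none rose (median -0.31, range of the mean -0.18 to 0.29 in non-carriers and -0.65 to -0.15 in carriers). P2ry12 fell by 1.6 and Cx3cr1 by 0.79, while Csf1r was not called (-0.15, adjusted p = 0.137), though it was without the 5 arrays (-0.28, adjusted p = 0.00216). Of 20 oligodendrocyte and myelin genes 14 fell and 1 rose (median -0.24), with Mbp lower by 0.24 and Car2 by 0.90, and their means overlapped, from -0.65 to 0.34 in non-carriers and from -0.52 to -0.10 in carriers. Without the 5 arrays 11 of the 20 were called lower. Of 21 endothelial and mural genes 5 rose and 4 fell, shares near those of all genes, and without all 9 arrays 3 rose. The part of these cell types in the lipid results was not tested.

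Neuronal genes were lower in a graded way. Of 17 pan-neuronal genes 9 fell and 3 rose (median -0.14), with a mean per array from -0.14 to 0.09 in non-carriers and from -0.31 to -0.05 in carriers. The neurofilament Nefm fell by 0.71, the nuclear marker Rbfox3 by 0.27 and the presynaptic SNARE protein Snap25 by 0.33, and the deubiquitinase Uchl1 rose by 0.42. Of 23 genes of cortical layers and projection neurons 18 fell and 3 rose (median -0.42). The upper-layer factor Cux2 was 9.65 to 10.24 in non-carriers (median 9.98) and 8.59 to 9.22 in carriers (median 8.86). It fell by 1.09 without overlap on this probe set, while its other probe sets read -0.16 and -0.12 and were not called. Tbr1, of deep layers, fell by 0.52 and the vesicular glutamate transporter Slc17a7 by 0.42. Of 25 interneuron genes and neuropeptides 19 fell and 1 rose (median -0.49). Sst (somatostatin) was 10.8 to 11.45 in non-carriers (median 11.13) and 9.33 to 10.23 in carriers (median 9.71). It fell by 1.39, and Crh by 1.68, Vip by 0.95 and Gad1, which makes GABA, by 0.87. Parvalbumin, Pvalb, fell by 0.67 with 16 of 18 carriers below all non-carriers. The part of these marker changes in the synaptic results that follow was not tested.

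At synapses the falls were shared by receptors, scaffolds and release machinery. Of 20 AMPA, NMDA and kainate receptor subunits and their auxiliary proteins 11 fell and none rose (median -0.17). The AMPA receptor subunits Gria3 (-0.68), Gria4 (-0.48) and Gria2 (-0.17) fell, the last not called without the 5 arrays (adjusted p = 0.107), and Gria1 was not called (0.08, adjusted p = 0.46). The auxiliary subunit Cacng3 fell by 1.22. Of 26 scaffold genes of the postsynaptic density 13 fell and 5 rose (median -0.17). Homer1 was 11.03 to 11.38 in non-carriers (median 11.22) and 10.23 to 10.79 in carriers (median 10.56). Carriers were below all non-carriers (-0.68 ± 0.049, SE, adjusted p = 9.01e-14). Camk2a, the kinase of synaptic plasticity, fell by 0.47 and Dlg4, known as PSD-95, by 0.35. Of 30 metabotropic glutamate and other G protein coupled receptors 21 fell and 1 rose (70.0% and 3.3%, median -0.26), with Grm2 and Grm3 lower by 0.76 and 0.84. Of 9 GABA-A receptor subunits 4 fell and 1 rose, and Gabrd, the subunit of extrasynaptic receptors, fell by 1.1.

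Of 45 genes of vesicle release 28 fell and 3 rose (62.2% and 6.7%, median -0.17), 15 of them by small amounts. The vesicle SNARE protein Vamp1 was 9.7 to 10.2 in non-carriers (median 9.95) and 8.57 to 9.07 in carriers (median 8.88). It fell without overlap (-1.1 ± 0.053, SE, adjusted p = 2.73e-18). The priming factor Unc13a fell by 0.77 and the active zone scaffold Rims1 by 0.74, whereas the calcium sensor Syt1 fell by 0.18. Synaptophysin, Syp, rose by 0.09. The mean of the group ranged from -0.08 to 0.06 per array in non-carriers and from -0.37 to -0.22 in carriers. Ion channels fell likewise. Of 44 potassium channel genes 29 fell and 3 rose (65.9% and 6.8%, median -0.32), led by the channel-interacting protein Kcnip2 (-1.07). Of 28 calcium channel, store and pump genes 15 fell and 4 rose (median -0.17), and 2 rose without the 5 arrays. The release channel Ryr1 was lower by 1.99. Of 12 sodium channel genes 7 fell and 3 rose. The subunit Scn4b was 9.04 to 9.61 in non-carriers (median 9.38) and 6.87 to 7.78 in carriers (median 7.36). It fell by 2.01, whereas Scn3a, a channel of the developing brain, rose by 0.75, both without overlap.

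Among signalling genes the calcium, MAP kinase and immediate early groups had more falls than rises. Of 37 calcium and cAMP signalling genes 18 fell and 5 rose (median -0.21), including Ppp1r1b (-1.14), the phosphatase inhibitor DARPP-32, and Camkk2 (-1.09). Of 34 genes of the MAP kinase cascade 20 fell and 3 rose (median -0.20). Dusp6, a phosphatase induced by the cascade, was 9.42 to 10.57 in non-carriers (median 9.83) and 8.77 to 9.32 in carriers (median 9.04). It fell by 0.85 without overlap. The group of protein kinase C, phospholipase C and inositol signalling was split, with 11 of 30 higher and 12 lower. Its median was 0.03 and became -0.02 without the 4 arrays high in Prl. Itpka, an inositol trisphosphate kinase, fell by 1.31 and Prkcb by 0.54, while Plce1 rose by 0.71. Of 29 immediate early genes 21 fell and 2 rose (median -0.66), with only 2 small changes, including Npas4 (-2.04), Arc (-1.87) and Fos (-1.04). Their mean per array varied widely in non-carriers, from -0.38 to 0.62, and lay between -0.85 and -0.42 in carriers. Bdnf, a growth factor of the same group, was 7.67 to 8.7 in non-carriers (median 8.09) and 7.17 to 7.75 in carriers (median 7.39). It fell by 0.66 with 15 of 18 carriers below all non-carriers.

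Of 21 circadian clock genes 14 fell and 2 rose (median -0.36). Dbp, an output of the clock, fell by 1.36 and the period gene Per3 by 0.88, and the repressor Cry1 rose by 0.79. The time of day at which tissue was taken is not given in the sources used here, and its part in these values was not tested. Of 20 glucocorticoid-responsive genes 8 rose and 2 fell (median 0.17), among them the lipid droplet protein Plin4 (2.1) and Fkbp5 (0.92 ± 0.10, SE, adjusted p = 4.99e-09), a cochaperone of the glucocorticoid receptor, whereas the receptor Nr3c1 fell by 0.61. Of 36 insulin, Akt and mTOR genes 14 rose and 8 fell (median 0.05), near the shares of bright genes, with Igf1 lower by 0.85. Of 32 complement, interferon and antigen presentation genes 14 rose and 5 fell (median 0.10). The largest rises were of interferon-induced genes, with Ifi27l2a at 1.83, Ifit1 at 1.38 and Usp18 at 1.11, and the falls included the microglial complement genes C1qa, C1qb and C1qc, of which C1qc was not called without all 9 arrays (adjusted p = 0.0847).

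The cytoskeleton showed changes in both directions within families. Of 34 genes of kinesins, dynein and axonal transport 13 rose and 7 fell (38.2% and 20.6%, median -0.01), near the shares of bright genes. The kinesin-1 heavy chains Kif5a and Kif5c fell by 0.29 each, the kinesin Kif1a rose by 0.44, and the dynein partners Dctn6 (0.43) and Dctn1 (0.24) rose. Of 30 tubulins and microtubule-associated proteins 11 fell and 3 rose (median -0.06), with the neuronal tubulin Tubb3 lower by 0.51 and without overlap. Of 38 actin regulators 8 rose and 7 fell (median 0.00), and the largest change was of Kalrn, a signalling protein of dendritic spines, which was 12.35 to 12.75 in non-carriers (median 12.54) and 11.44 to 11.87 in carriers (median 11.65). It separated the groups (-0.89 ± 0.039, SE, adjusted p = 2.60e-19), with 5 of 8 probe sets called. Of 54 axon guidance and adhesion genes 24 fell and 12 rose (median -0.11), with Sema7a lower by 0.89. Of 39 matrix genes 15 fell and 7 rose, and Hapln1, a link protein of perineuronal nets, fell by 1.64.

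Genes of the cell cycle, nearly silent in mature neurons, gave some of the larger rises. Of 40 measured 15 rose and 4 fell (median 0.06). Cks2, a subunit of cyclin-dependent kinases, was 4.95 to 6.04 in non-carriers (median 5.77) and 6.95 to 8.23 in carriers (median 7.83). It rose without overlap (2.06 ± 0.12, SE, adjusted p = 3.19e-16), as did the spindle protein Tpx2 (1.79). Of 19 targets of p53 and growth arrest 8 rose and 6 fell, among them the kinase inhibitor Cdkn1a (0.68) and Gadd45a, which fell by 0.59.

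Of the genes at the centre of the cross, the mouse huntingtin gene Htt was 8.31 to 8.91 in non-carriers (median 8.7) and 8.51 to 9.37 in carriers (median 8.88). It rose by 18.5% (0.24 ± 0.064, SE, adjusted p = 0.00242) with 8 of 18 carriers above all non-carriers, on 1 of its 4 probe sets, and in Dble::R6/2 against Hdac4HET alone it was not called (0.15, adjusted p = 0.22). Hdac4 was 7.47 to 8.2 in non-carriers (median 7.78) and 7.32 to 8.13 in carriers (median 7.73). Carriers and non-carriers overlapped, and the change was not called (-0.07 ± 0.051, SE, adjusted p = 0.315). By genotype Hdac4 was 7.81 to 8.2 in WT, 7.47 to 7.74 in Hdac4HET, 7.54 to 8.13 in R6/2 and 7.32 to 7.8 in Dble::R6/2. Of 11 Hdac genes 2 rose, Hdac1 (0.46 ± 0.071, SE, adjusted p = 2.29e-06) and Hdac2 (0.32), both class I deacetylases, and 5 fell, Hdac11 (-0.28), Hdac5 (-0.28), Hdac7 (-0.25), Hdac10 (-0.16) and Hdac9 (-0.14). Hdac3, Hdac6 and Hdac8 were not called. The reference genes Canx (-0.19, adjusted p = 0.00606) and Rpl13a (0.10, adjusted p = 0.0315), which the study used for qPCR, were called with all arrays and not without the 5 arrays or all 9.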

How the data were processed

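Gene expression was measured by the authors in cortex RNA with a whole-genome mouse expression array of Affymetrix, 1 array per mouse. The authors deposited a table of log2 values for 45037 probe sets in 34 arrays, after excluding chips that failed quality control, by steps of background correction, normalisation and summary not given in the sources used here. Precision is limited by the number of animals, and p-values measure the spread between mice of a genotype. No read depth applies to arrays.

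Probe sets were named through the platform annotation. A single gene symbol was found for 34945, several for 932 and none for 9160. A linear model with transgene and Hdac4 genotype was fitted in limma 3.58.1 (R 4.3.3) with empirical Bayes moderation, and p-values were adjusted by Benjamini-Hochberg over all probe sets. A fit with the interaction tested the difference between backgrounds, and each pair of genotypes was also fitted alone. The fits were tested on simulated data. The genes and gene lists were chosen with earlier results of these data known. Genes named are the 6 small rises and 6 small falls with the lowest adjusted p, the 5 largest rises and falls, up to 4 called members of each list with the largest change and up to 4 with the lowest adjusted p, and the genes used to check the arrays. Other well known members of a list were named with their values already seen. Alternatives covered normalisation, dim probe sets, array weights, variance model, sex, replicate number, the t-test of the methods, the choice of probe set and the removal of arrays. Promoter sequences were taken from RefSeq. The removal of 4 arrays high in choroid plexus or muscle transcripts, alone and with the other 5, was added after the data had been seen.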

Additional observations from a re-analysis of the deposited data

Results flagged for a closer look

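Values of 22 genes were compared within each of the 4 genotypes, 88 groups in all, and in 7 groups 1 array stood apart from the rest by Dixon's criterion, which chance alone meets in about 1 in 20 groups. Wdr45b, a small rise, read 10.543 in R6/2 replicate 2, the array with epidermal transcripts, and 10.389 in Dble::R6/2 replicate 7, both the highest of their genotype. Tmod1, a small fall, read 8.931 in Dble::R6/2 replicate 9, the highest of its genotype. Gm2102 read 3.957 in WT replicate 6. Ighm, the immunoglobulin heavy chain, read 6.121 in WT replicate 4 and 6.798 in Hdac4HET replicate 6. Prl read 9.224 in Hdac4HET replicate 1.

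A probe set of the protamine gene Prm1 was the one whose transgene effect differed between backgrounds after adjustment. The effect was 0.055 in R6/2 against WT and 1.082 in Dble::R6/2 against Hdac4HET, a difference of 1.027 on the log2 scale (interaction term in limma, adjusted p = 0.000908).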

How the results depend on the processing

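With all arrays 16108 probe sets were called for the transgene and 10760 of them were small changes. Leaving out each array in turn gave 15502 to 16485 and 10310 to 11318. Other limits of a small change, 20% and 15%, gave 6783 and 3898. The number of probe sets whose effect differed between backgrounds was 1, and became 0 with brighter probe sets only, 3 with array weights, 2 without the array with epidermal transcripts, and 1 to 10 on leaving out each array, the 10 without WT replicate 8. Over whole arrays same-numbered animals did not clearly deviate together (r from -0.382 to 0.45, median 0.03, over 49 pairs). The median over 384 other pairs was -0.008. The samples were therefore not treated as paired by number, although this check could miss a weak pairing. With the replicate number as a block 16082 probe sets were called, 10683 of them small changes, and 3 differed between backgrounds. The median of the protein kinase C and phospholipase C group turned from 0.0279 to -0.0228 without the 4 arrays high in Prl, to -0.0282 without the 5 arrays and to -0.0424 without all 9, where that of the sex-linked genes turned from 0.3013 to -0.5168. Leaving out all 9, chosen after seeing the data, left 6897 genes called, of which 95.3% were called with all arrays. With a gene's probe sets averaged, the change reversed for Mtcl1 (0.2462), Arsb (0.2443), Dlat (-0.0279), Hadhb (0.0375), Trak1 (0.2171) and Nfasc (-0.0144). The cause of these changes was not tested. For 380 named genes that were called, 6061 values were computed under 16 alternatives, 361 of the genes being bright enough for brighter probe sets only. Of these, 6003 kept direction and call, 52 lost the call and these 6 reversed. Of 1261 list medians under the same alternatives, 35 changed sign, 4 of them by more than 1 SD between mice (those given above), and 25 others moved by more than 1 SD. The human transgene was not measured, dim probe sets lie near background, and fewer cells of a type cannot be told apart from less RNA per cell.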

Other observations

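Several gene groups not described above moved in part. Of 22 genes of skeletal and cardiac muscle contraction 8 fell and none rose, among them the slow myosin heavy chain Myh7 (-1.96) and the myosin light chain Myl4 (-1.81), and without all 9 arrays 8 fell and 1 rose. Of 20 genes that mark striatal projection neurons, many of them also expressed in cortex, 12 fell and 1 rose (median -0.35), including the opioid precursor Penk (-1.38) and the G protein regulator Rgs4 (-1.35). Of 17 neurofilament and axon initial segment genes 7 fell and 2 rose, with the neurofilament light chain Nefl lower by 0.47. Of 11 oligodendrocyte precursor genes 6 fell and none rose, led by the receptor Gpr17 (-0.74). Of 13 choroid plexus and ependymal genes 4 rose and none fell, among them Ttr (1.27), Sostdc1 (0.91) and Kl (0.62), with 12 of 18 carriers within the range of non-carriers and the highest means in Dble::R6/2 replicates 4, 8 and 9. The median of the group was 0.17 in R6/2 against WT and 0.48 in Dble::R6/2 against Hdac4HET. Without all 9 arrays 1 was called, Sostdc1 (0.50), while Ttr (0.73, adjusted p = 0.239) and Kl (0.28, adjusted p = 0.12) were not. The part of choroid plexus tissue in these rises was not tested.

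Signalling and organelle groups were mixed. Of 58 components of the Wnt, Notch, TGF-beta and Hedgehog pathways 18 fell and 11 rose, with the ligand Wnt4 lower by 0.80 and the Notch target Hey1 by 0.65, and the signal transducers Dvl3 (0.61) and Smad4 (0.49) higher. Of 33 mitochondrial import and protein quality genes 13 rose and 2 fell (39.4% and 6.1%, median 0.08), the share of rises being near that of bright genes. All 15 calls were small changes. Timm44, which tethers the import motor, rose by 0.32 and the protease subunit Spg7 by 0.33, while Tomm7, of the outer membrane translocase, fell by 0.30.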
